A study of Homo sapiens with 6 samples.

Results

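The SMAD2/3 peaks around DDIT4 on human chromosome 10 were examined in the triple-negative breast cancer lines Hs578T and BT549. Members are the peaks of the 4 peak lists whose midpoint lies between 73950000 and 74150000 on chromosome 10 (hg19), a window of 200 kb. There were 30 such peaks of 20600 in all. The lists contributed 6 of 1849 peaks for Hs578T at 16 h, 6 of 1373 for Hs578T at 1.5 h, 9 of 8153 for BT549 at 16 h and 9 of 9225 for BT549 at 1.5 h. The peaks were chosen by their position, and the window itself was chosen by the scores and recurrence that its peaks were already known to have in these 4 lists. Positions, scores, ranks and overlaps are therefore given as a description, with no test.

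The groups are Hs578T cells at 16 h and at 1.5 h and BT549 cells at 16 h and at 1.5 h, all of them stimulated with recombinant human TGFβ3. Hs578T cells grew in DMEM and BT549 cells in RPMI-1640, both with 10% serum and with insulin. Chromatin was precipitated with an antibody that recognises both SMAD2 and SMAD3, with 1 library per line and time, so that no replicate spread is known. The score of a peak is the value that the authors' peak caller gave it, a log-scaled p-value that grows with enrichment and with library depth. Depth is unknown here, so a peak is described by its score, its rank (the number of peaks of its list scoring at least as high) and that number as a share of the list. Input DNA of untreated cells, 1 sample per line, was not analysed here, and no unstimulated SMAD2/3 library was used, so binding before TGFβ3 is not known from these data.

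TGFβ receptors phosphorylate SMAD2 and SMAD3, which then enter the nucleus with SMAD4 and bind DNA beside other transcription factors at promoters and distal enhancers. SMAD3 and SMAD4 recognise the short motif CAGAC and related GC-rich motifs. DDIT4 encodes REDD1, a stress-induced protein that restrains the growth kinase complex mTORC1 through the TSC1-TSC2 complex. The gene is known to be induced by hypoxia, energy stress, DNA damage and glucocorticoids.

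In RefSeq (GRCh38.p14) the neighbouring genes include DDIT4-AS1, a long noncoding RNA, with ANAPC16 and ASCC1 beyond it on the 5′ side of DDIT4, and DNAJB12 on the 3′ side. ANAPC16 is a subunit of the anaphase-promoting complex and DNAJB12 a co-chaperone of the endoplasmic reticulum. A snoRNA (LOC124902572) and the pseudogenes RPL15P14, RNU6-805P, SNX19P4 and COX7CP4 are also within 5 places. No hg19 annotation was used here, so it is not known which peaks lie within these genes, in exons, introns or between genes. Distances are given from the DDIT4 start taken as 74034 kb on the plus strand. This position is rounded to the kb, so that every distance is approximate by a part of 1 kb, which matters most close to the start.

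Peaks closest to the DDIT4 start lie just 5′ of it, so the bases before the start are shown, with the short SMAD motifs in capitals (CAGAC and GGCGC on either strand). They are the 250 bases before the RefSeq start, plus strand, chr10:72273674-72273923 in GRCh38.p14. These coordinates cannot be set beside the hg19 peak positions.

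DDIT4 promoter: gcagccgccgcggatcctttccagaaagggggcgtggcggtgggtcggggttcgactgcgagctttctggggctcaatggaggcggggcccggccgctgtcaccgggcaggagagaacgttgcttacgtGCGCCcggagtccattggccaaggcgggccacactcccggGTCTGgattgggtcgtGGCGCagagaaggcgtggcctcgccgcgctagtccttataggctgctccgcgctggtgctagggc

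This stretch held 1 match to CAGAC, on the minus strand 81 to 77 bases before the start. A match on either strand was present in 38.0% of 35116 RefSeq promoters of the same length. GGCGC matched at 2 places, 121 to 117 bases before the start on the minus strand and 65 to 61 on the plus strand, and 44.5% of promoters held it. The hypoxia response motif ACGTG matched once, 125 to 121 bases before the start, sharing 1 base with the first GGCGC match, and 18.5% of promoters held it. The CCAAT box matched at 2 places on the minus strand, 108 to 104 and 75 to 71 bases before the start, and 32.0% of promoters held it. No match was found on either strand for GTCTAGAC, the SMAD palindrome (0.182% of promoters), TGANTCA of AP-1 (6.57%), GGAATG of TEAD factors (11.9%), TGATGCAA of ATF4 with C/EBP (0.772%), ACANNNTGT of steroid receptors (4.61%) or TATAAA (10.7%). Of its bases 68.8% were G or C, against a median of 58% over all promoters, and 23.4% of promoters were at least as GC-rich. The SMAD motif matches are thus of a kind that a large part of promoters carries.

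The 30 peaks formed 11 sites, and 4 of these had a peak in every library. These are called here the upstream site, the promoter site, the downstream site and its companion. They took 21 of the 30 peaks. Another 2 sites were listed in BT549 at both times and in neither Hs578T list. The remaining 5 sites were listed in 1 library each, 2 in BT549 at 16 h, 2 in BT549 at 1.5 h and 1 in Hs578T at 16 h. Over the whole lists, no site was listed at both times in Hs578T without a BT549 peak. Hs578T thus had peaks at 5 of the sites and BT549 at 10, from lists of unequal length. With the 1373 highest-scoring peaks of every list, the order by number of window peaks turned. Hs578T then had 5 window peaks at 16 h and 6 at 1.5 h, against 2 in BT549 at 16 h and 4 at 1.5 h. With sites joined anew, Hs578T had peaks at 5 sites and BT549 at 4. The distal and proximal parts of the promoter site counted separately there, as the BT549 16 h peak that joined them dropped out. The difference by site rests on that split. The upstream site, the proximal part of the promoter site and the companion were then listed at both times in Hs578T without a BT549 peak, and the downstream site was the 1 site left in all 4 libraries. Over the whole series, 65 of 15870 merged regions, or 0.41%, had a peak in all 4 libraries. Of the regions with an Hs578T peak 2.33% did, set beside 4 of the 5 such sites in the window.

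**Figure D1:**
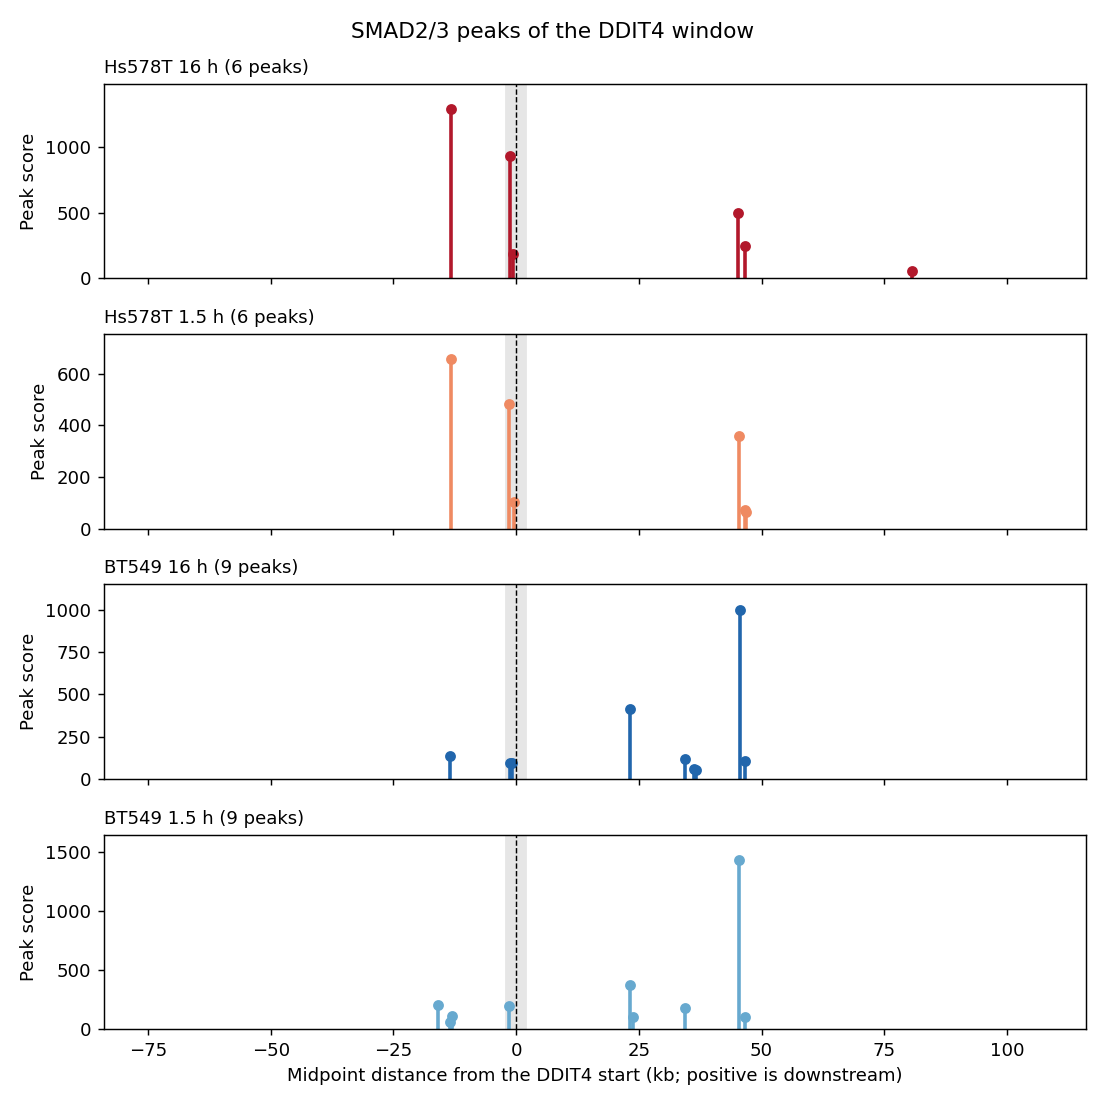
Score of each peak (vertical axis, with its own scale in each panel) against the distance of its midpoint from the DDIT4 start in kb, with 1 panel per library; the dashed line marks the start and the grey band 2 kb to either side. The highest peak lies upstream, 13.2 kb before the start, in both Hs578T panels and downstream, 45.6 and 45.4 kb beyond it, in the BT549 panels at 16 h and 1.5 h.

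The order of the sites by score differed between the lines, and its leading places were the same at both times of a line. In Hs578T at both 16 h and 1.5 h, the upstream site scored highest, followed by the promoter site, the downstream site and its companion. In BT549 at both times the downstream site scored highest and a BT549 site 23.2 kb beyond the start came next. By class, the highest upstream, promoter and downstream scores in Hs578T were 1293.8, 934.7 and 500.5 at 16 h and 656.3, 482.1 and 360.2 at 1.5 h. In BT549 they were 138.2, 96.7 and 1001.1 at 16 h and 206.2, 199.95 and 1433.5 at 1.5 h, where the 206.2 belongs to a narrow peak 15.9 kb before the start and not to the upstream site, which had 113.6. The class with the highest score was thus upstream in both Hs578T lists and downstream in both BT549 lists. Classes go by the midpoint of a peak, with promoter meaning within 2 kb of the start.

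The upstream site spanned 74020229 to 74021316, centred 13.2 kb before the DDIT4 start. In Hs578T it was a single broad peak, 1088 bp wide at 16 h with a score of 1293.8, which ranked 3 of 1849, and 950 bp wide at 1.5 h with 656.3, which ranked 5 of 1373. The median widths of these lists were 151 bp and 141 bp, so that the peaks were 7.21 and 6.74 times as wide as the median. The 1.5 h peak lay entirely within the 16 h peak, and the midpoints were 3 bp apart. At 16 h it was the highest-scoring Hs578T peak that overlapped any BT549 peak of the same time, and at 1.5 h it was in place 3 among such peaks.

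In BT549 the same place carried narrower peaks that stood lower in their lists. At 16 h a peak of 460 bp scored 138.2 and ranked 1415 of 8153, and 17.4% of the list scored at least as high. At 1.5 h there were 2 peaks 185 bp apart, of 236 bp with a score of 57.5 and of 261 bp with 113.6. The higher of these ranked 3306 of 9225, and 35.8% of the list scored at least as high. In the Hs578T lists the corresponding shares were 0.162% at 16 h and 0.364% at 1.5 h. All 3 BT549 peaks lay within the Hs578T peak of the same time. The BT549 16 h peak covered the 5′ part of the site, with its midpoint 247 bp 5′ of the Hs578T midpoint.

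The promoter site spanned 74032268 to 74033612, from about 1.7 to 0.4 kb before the rounded start, and was made of a distal and a proximal part. The distal part had the higher score in every library that listed both. In Hs578T the distal peak was 890 bp wide at 16 h, scored 934.7 and ranked 6. At 1.5 h the Hs578T distal peak was 550 bp wide, scored 482.1 and ranked 7. In BT549 the distal peak was 358 bp wide at 16 h with a score of 96.7 and a rank of 2891, and 498 bp wide at 1.5 h with 199.95 and a rank of 1250. At 1.5 h the midpoints of the distal peak in Hs578T and BT549 were 23 bp apart, and at 16 h 21 bp apart. The distal part was thus at nearly the same position in all 4 libraries while its standing within the lists differed between the lines.

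The proximal part was listed in 3 libraries. In Hs578T it scored 184.5 at 16 h with a rank of 165 and 102.0 at 1.5 h with a rank of 159, centred 0.6 and 0.5 kb before the rounded start. In BT549 it was listed at 16 h with a score of 91.3 and a rank of 3101, centred 0.7 kb before the start, and had no peak at 1.5 h. The BT549 16 h proximal peak touched both Hs578T 16 h peaks, sharing 86 bp with the distal and 218 bp with the proximal peak. Without this bridge the promoter site would count as a distal and a proximal site. When peaks had to share 50% of both widths, the sites in all 4 libraries numbered 3, namely the distal part of the promoter site, the downstream site and its companion.

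The downstream site, from 74078964 to 74080120 and centred 45.5 kb beyond the start, stood high in every list. Its Hs578T peaks were 472 bp wide at 16 h, with a score of 500.5 and a rank of 26, and 486 bp wide at 1.5 h, with 360.2 and a rank of 12. In BT549 they were 1001 bp wide at 16 h, with 1001.1 and a rank of 13, and 785 bp wide at 1.5 h, with 1433.5 and a rank of 7. The shares of the list scoring at least as high were 1.41% and 0.874% for Hs578T at 16 h and 1.5 h, and 0.159% and 0.0759% in BT549. Hs578T and BT549 midpoints at 1.5 h were 4.5 bp apart. At 16 h the BT549 peak reached further 3′, and the midpoints were 321.5 bp apart.

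A companion from 74080381 to 74080997 began 260 bp beyond the downstream site and was likewise listed in all 4 libraries, at a lower standing. In Hs578T its 16 h peak was 617 bp wide, scored 249.6 and ranked 111. The 1.5 h list had 2 peaks there, 42 bp apart, with scores of 73.6 and 65.9 and ranks of 314 and 440. In BT549 the companion scored 103.2 at 16 h with a rank of 2574 and 102.2 at 1.5 h with a rank of 3747. It thus stood below the downstream site in every list.

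**Figure D2:**
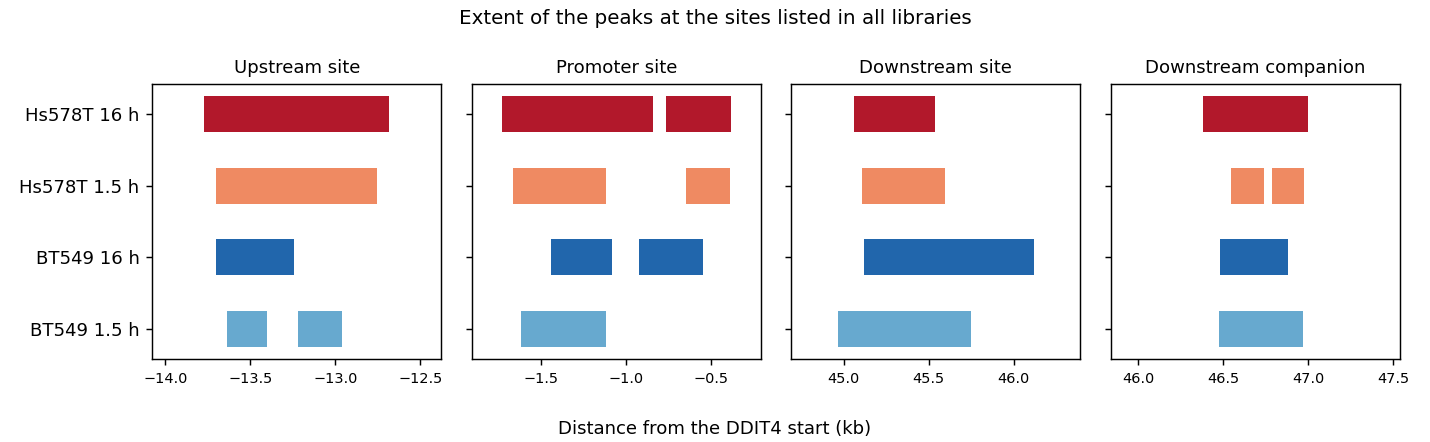
Extent of each peak at the 4 sites with a peak in every library, with libraries from top to bottom and distance from the DDIT4 start in kb on the horizontal axis (each panel covers an equal length). The Hs578T peaks at the upstream site, 1088 and 950 bp at 16 h and 1.5 h, contain the BT549 peaks, while at the downstream site the BT549 peaks, 1001 and 785 bp, are the wider ones.

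Within each list, the score of the upstream and promoter sites can be set against that of the downstream site. The ratio of scores is not a ratio of bound DNA, since a score is on a log scale of the p-value. The upstream site scored 2.58 times as high as the downstream site in Hs578T at 16 h and 1.82 times at 1.5 h, against 0.138 times in BT549 at 16 h and 0.0793 times at 1.5 h. For the promoter site the values were 1.87 and 1.34 in Hs578T and 0.0965 and 0.139 in BT549. Both sites were above the downstream site in both Hs578T lists and below it in both BT549 lists. This difference between the lines was not tested, since the window was chosen on these scores.

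The 2 sites of BT549 alone lay between the gene start and the downstream site. The first, from 74056901 to 74057442 and 23.2 kb beyond the start, scored 413.1 at 16 h with a rank of 149 and 374.3 at 1.5 h with a rank of 342. The second, from 74068137 to 74068753 and 34.4 kb beyond the start, scored 116.5 at 16 h with a rank of 2151 and 180.7 at 1.5 h with a rank of 1555. Neither Hs578T list, whose lowest scores were 50.01 and 50.02, had a peak at either place. A place without a listed peak may hold binding below the caller's threshold, and the depth behind the Hs578T lists is unknown.

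The 5 sites of a single library had scores from 51.1 to 206.2. BT549 at 1.5 h had a peak of 86 bp from 74018070 to 74018155, with a score of 206.2, and a peak from 74057497 to 74057984, with 105.5, which began 54 bp beyond the first BT549 site. BT549 at 16 h had peaks from 74069996 to 74070310 and from 74070501 to 74070720, with 59.9 and 51.1. Hs578T at 16 h had a peak from 74114624 to 74114843, with 52.0, the member farthest from the start at 80.7 kb. The 86 bp peak was the narrowest member, and it was the only one under 150 bp.

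**Figure D3:**
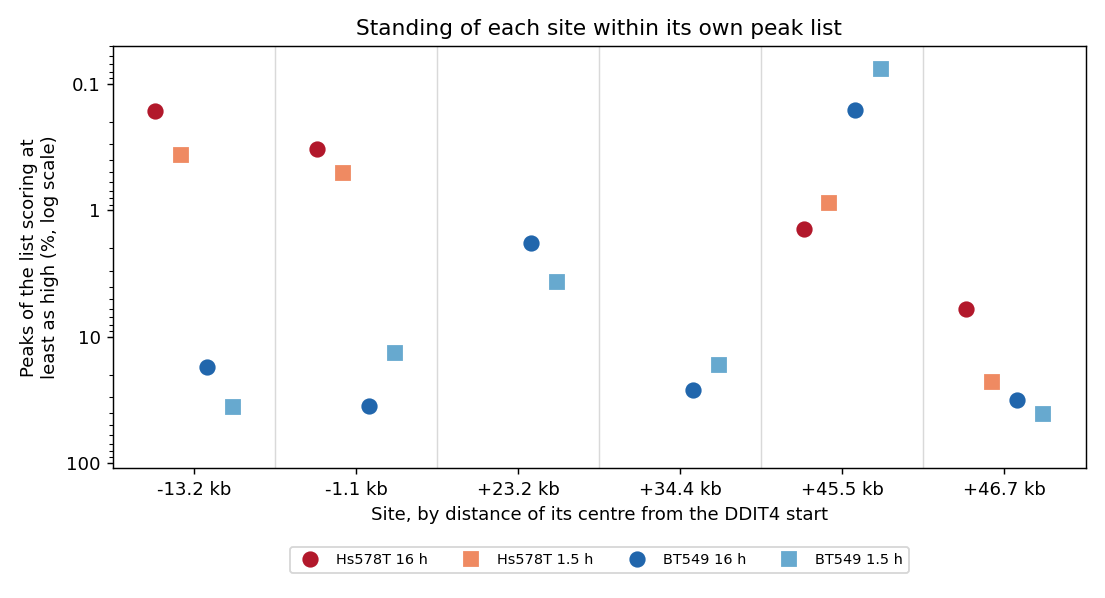
Percentage of the peaks of a list that score at least as high as the site's highest peak in that list (log scale, higher standing at the top), for the 6 sites listed in 2 or more libraries, by distance of the site's centre from the DDIT4 start. At the upstream site the Hs578T points (0.162 and 0.364%) lie above the BT549 points (17.4 and 35.8%), and at the downstream site the BT549 points (0.159 and 0.0759%) lie above those of Hs578T (1.41 and 0.874%).

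Peaks of the window recurred between times in both lines. In Hs578T, 5 of the 6 peaks at 16 h overlapped a 1.5 h peak, where 20.1% of the whole 16 h list did, and all 6 at 1.5 h overlapped a 16 h peak, where 27.8% of that list did. In BT549, 6 of 9 peaks at 16 h overlapped a 1.5 h peak (46.5% of the list), and 6 of 9 at 1.5 h overlapped a 16 h peak (41.4% of the list). Since higher-scoring peaks recur more often, the peaks with a score of 100 or more are given too, counted against peaks of any score at the other time. In Hs578T these recurred in 5 of 5 at 16 h and 4 of 4 at 1.5 h, where 64% and 89.1% of such peaks did in the whole lists. In BT549 they recurred in 5 of 5 at 16 h and 5 of 8 at 1.5 h, where 70.9% and 64% did. The window was proposed for its recurring peaks, so nothing is read from these shares.

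Between lines, 5 of the 6 Hs578T peaks of each time overlapped a BT549 peak of the same time, where 10.3% of the list did at 16 h and 11.2% at 1.5 h. In the other direction, 5 of 9 BT549 peaks did at each time, where 2.17% of the list did at 16 h and 1.59% at 1.5 h. Of peaks with a score of 100 or more, 5 of 5 in Hs578T at 16 h and 3 of 4 at 1.5 h overlapped a BT549 peak of any score. In the whole lists 19.7% and 29.7% of such peaks did. In BT549 3 of 5 at 16 h and 4 of 8 at 1.5 h overlapped an Hs578T peak of any score, where 2.93% and 2.22% did. These counts too rest on peaks that the choice of window favoured. With 50% of both peaks overlapping, 2 Hs578T peaks remained at each time.

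The sites were also set beside the other regions with a peak in all 4 libraries. The window held 4 of the 65, or 6.15%, and 44 of the 65 had no other such region within 100 kb. At 1 other place, on chromosome 1 between 856307 and 878804, such regions were more numerous within 100 kb, with 5 of them against the 4 of the window. Ordered by rank within each list, the upstream site was in place 1 among the 65 in Hs578T at 16 h and 3 at 1.5 h, but in place 35 in BT549 at 16 h and 44 at 1.5 h. The promoter site was in places 3 and 4 in Hs578T and 43 and 31 in BT549 at 16 h and 1.5 h. The downstream site was in places 7 and 6 in Hs578T and 3 and 1 in BT549.

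Of the 65 regions, 3 stood in the top 1% of both Hs578T lists, and 2 of these, the upstream and the promoter site, were outside the top 10% of both BT549 lists. These limits were chosen after the values were seen. A region on chromosome 1 from 198904602 to 198905189 narrowly missed them, with 0.216% and 1.02% for Hs578T at 16 h and 1.5 h and 89.0% and 99.5% in BT549. A high standing in Hs578T with a low one in BT549 was thus not found at DDIT4 alone.

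The number of peaks in the window was set beside all 15250 tiles of 200 kb that cover the chromosomes up to the last peak. At least 6 peaks were present in 0.125% of tiles in Hs578T at 16 h and 0.0787% at 1.5 h. At least 9 peaks were present in 0.0656% of tiles in BT549 at 16 h and 0.21% at 1.5 h. A tile held on average 0.121 and 0.0900 peaks in Hs578T and 0.535 and 0.605 in BT549 at 16 h and 1.5 h. These 4 counts were reached together in 1 tile, 0.00656% of them, and it is the tile that holds all 30 peaks of the window. As the counts are the window's own, that tile reached them by construction, and nothing is read from this share. The shares per list include that tile too. Peaks standing side by side, such as the 2 parts of the promoter site, count separately here.

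**Figure D4:**
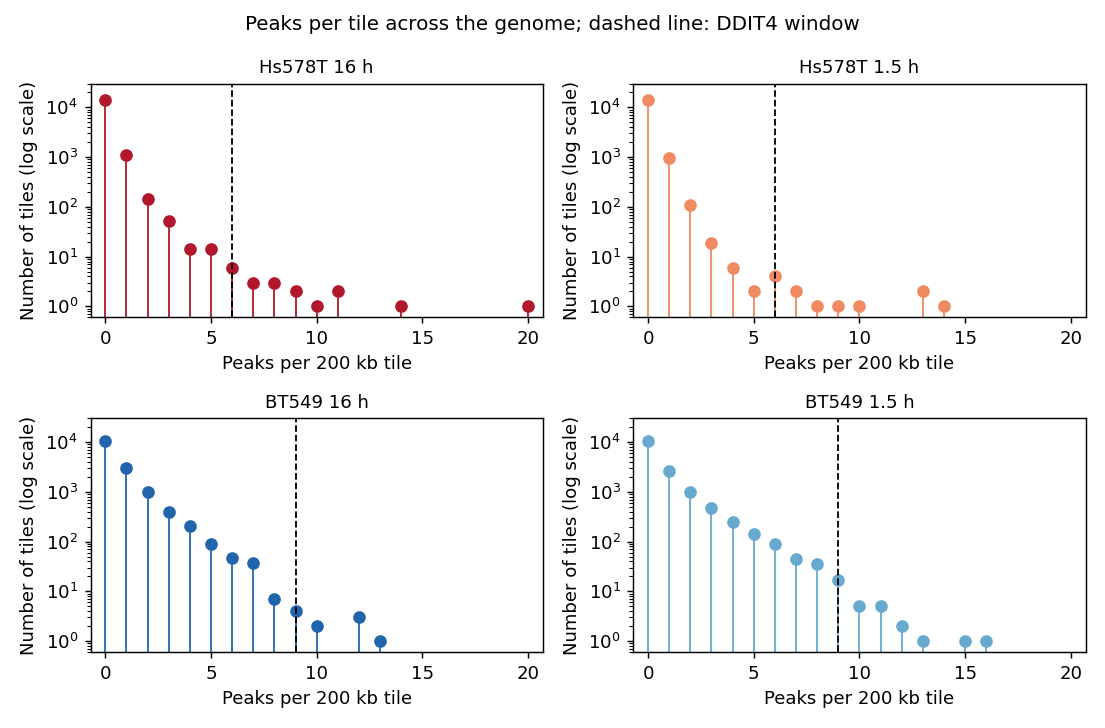
Number of tiles of 200 kb (log scale) with a given number of peaks, with 1 panel per library; the dashed line marks the count in the DDIT4 window, 6 in both Hs578T lists and 9 in both BT549 lists. Tiles at or beyond the line number 19 and 12 for Hs578T at 16 h and 1.5 h, and 10 and 32 in BT549.

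The leading sites lay far from the limits of the window, and the peaks just below it scored from 54.6 to 102.3. The nearest peak below the lower limit was 16.1 kb away in Hs578T at 16 h with a score of 102.3, 16.5 kb in Hs578T at 1.5 h with 54.6, 18.7 kb in BT549 at 16 h with 72.4 and 19.0 kb in BT549 at 1.5 h with 96.5. Above the upper limit, the nearest peaks were 2436 and 2197 kb away for Hs578T at 16 h and 1.5 h and 1250 and 761 kb away in BT549. The members nearest the lower limit were 68.1 to 70.8 kb inside it, and those nearest the upper limit 35.3 to 69.3 kb inside it.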

How the data were processed

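Peak lists of 4 SMAD2/3 ChIP-seq libraries were used, 1 per cell line and time. The tools named in the submitters' processing notes are Bowtie 1.1.0, Picard and MACS 1.4.2, with the build hg19; what each did, and whether the input served as background, is not given in the sources used here. Each deposited value is the authors' peak-caller score, which MACS of this version writes as −log10 of the p-value multiplied by 10; it was read within a list. Lists differ in length, so ranks in different lists are no measure of change.

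Positions are counted from 1 with both ends included, so that each start is 1 more than the deposited value. Peaks of any lists sharing at least 1 bp were joined to a site. Sites with peaks in at least 2 libraries are described in full, the others by counts and ranges, or each where 5 or fewer; genes named are DDIT4 and those within 5 places of it in RefSeq, with an exception that is not reported here. Members, lists and comparisons were chosen with earlier results of these data known. No test between groups was made. Overlaps and sites were checked on simulated lists with planted sites. Alternatives were limits on score, width and list length, other windows, overlaps and promoter limits, shifted tiles, no gap edges (leaving out, on each chromosome, peaks up to 1 Mb from either end of its longest peak-free stretch) and, added after seeing the data, summed scores. Python 3.11.15, numpy 2.4.6, scipy 1.17.1 and matplotlib 3.10.9 were used.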

Additional observations from a re-analysis of the deposited data

Results flagged for a closer look

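The score of the upstream and the promoter site relative to the downstream site lay above 1 in both Hs578T libraries and below 1 in both BT549 libraries, so that the lines differed in opposite directions under the same comparison; this difference was not tested. For the upstream site the values were 2.58 in Hs578T at 16 h and 1.82 at 1.5 h, against 0.138 in BT549 at 16 h and 0.0793 at 1.5 h. For the promoter site they were 1.87 and 1.34 in Hs578T at 16 h and 1.5 h, against 0.0965 and 0.139 in BT549. The depth of each library is unknown and its part in these values was not tested.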

How the results depend on the processing

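No paired analysis was possible because there was 1 library per line and time, and no value here comes from a test. Of 126 values recomputed under the alternatives, 93 stayed within 1.5 times the value given (for shares, within its 95% Wilson interval) and 33 moved further. A change of side was looked for only in the score ratios with summed scores, where none crossed 1. Comparisons between the lines were not checked for it, and the order of their window counts turned with equal numbers of highest-score peaks. With a score of at least 100 required in every list, BT549 at 16 h had 5 window peaks and the sites in all 4 libraries were 2 (the upstream and downstream sites). Each overlap between lines was 3, as peaks of either line below 100 no longer counted. The highest window peak then stood at 0.857% and 3.03% of the Hs578T lists at 16 h and 1.5 h and 0.477% and 0.181% of the BT549 lists. All 4 lists have fewer peaks under this limit by construction, with 350 and 165 left in Hs578T and 2726 and 3866 in BT549. With equal numbers of highest-score peaks, the 16 h window peaks were 5 in Hs578T and 2 in BT549, and those of 1.5 h were 6 in Hs578T and 4 in BT549. All sites then numbered 7, with the parts of the promoter site counted separately, and the downstream site was the 1 site in all 4 libraries. Each overlap between BT549 times was 2, and overlaps between lines were 1 at 16 h and 2 at 1.5 h. With 50% of both peaks, each overlap between lines was 2, as the other pairs shared less than 50% of the wider peak. At 16 h the shared bases were 42.3% of the Hs578T upstream peak, 40.2% of the Hs578T distal promoter peak and 41.5% of the BT549 downstream peak. At 1.5 h they were at most 27.5% of the Hs578T upstream peak and 40.2% of the BT549 companion peak. A promoter limit of 1 kb made the upstream peaks 2 and the promoter peaks 1 in Hs578T at 16 h and 1.5 h and in BT549 at 16 h, and the promoter peaks 0 in BT549 at 1.5 h. Since the start is rounded to the kb, which peaks fall within 1 kb of it is not settled. With summed scores, the BT549 ratios to the downstream site were 0.188 for the promoter site at 16 h and 0.119 for the upstream site at 1.5 h. Depth and the absence of replicates limit all values, and an unlisted site may still be bound.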
